A study of Pleurotus ostreatus with 9 samples.

Results

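Mycelium of the oyster mushroom Pleurotus ostreatus, strain GEMB-PO1, was compared after exposure to the plasticizer butyl benzyl phthalate (BBP) with mycelium of both other groups of the study, to describe the genes that were highest or lowest with BBP alone. The members were the 9397 mRNA genes with a mean of at least 1 FPKM over the 9 libraries, of 10682 genes in the whole table. FPKM counts fragments per kilobase of gene, scaled to a common library depth, and is the unit of every level below. The gene just inside this limit averaged 1.00 FPKM and the gene just outside it 0.993 FPKM, and 1226 mRNA genes lay under it. The BBP group had 3 cultures with BBP added, the second group 3 cultures with BBP and PB, which is piperonyl butoxide at 1 mM and blocks cytochrome P450 enzymes, and the control group (CK) 3 cultures with no chemical. Replicates of the second group are written PB replicate 1 to 3. Every culture was of this 1 strain, grown with shaking (180 rpm, 28 °C) in a medium with 20 g/L glucose and 5 g/L each of peptone and yeast extract, and collected on day 3. The BBP dose is 50 mg/L in the series design and 200 mg/L in the sample protocols, and cultures given PB without BBP were not analysed here. A gene that differed with BBP from the 2 other groups was thus compared with cultures lacking BBP and with cultures that held BBP beside the inhibitor.

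White-rot fungi such as P. ostreatus take apart lignin and many foreign aromatic compounds with secreted oxidases and with intracellular oxygenases. Cytochrome P450 enzymes insert oxygen into lipophilic compounds, and in such fungi they form large gene families. Glutathione transferases and methyltransferases attach groups to reactive or hydroxylated products, and membrane carriers move compounds out of the cytosol. Acids released from an ester can enter central metabolism as acetyl-CoA, which fungi growing on such carbon turn into sugar through the glyoxylate cycle and gluconeogenesis.

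Libraries held 38098599 to 49161706 counts. The 10 most abundant genes took 11.1% to 14.6% of the counts of a library, and all libraries carry the same batch label. In such bulk RNA, a change in the share of some hyphae and a change in RNA per hypha cannot be told apart. The fruiting body and cytolysin list, which names tissue other than vegetative mycelium, had 3 tested members, of which edgeR called 0 with BBP against the average of both other groups, as did DESeq2 and limma, and 0 had an unadjusted p under 0.05. The median log2 difference of the 3 in that comparison was 0.37. Against single groups, 1 member was called lower with BBP than in control, and 1 was called higher than with BBP and PB. Among all tested genes these shares were 8.32% and 10.5%. On the second principal component of log2(FPKM + 1), 13.8% of the variance, the BBP libraries lay at -26.3 to -20.3 and the others at 7.70 to 16.2. On the first, 61.3% of the variance, BBP replicate 2 lay at 5.70 and the other BBP libraries at -9.59 and -8.73, so that BBP replicate 2 was the nearest of them to the libraries with PB at 42.4 to 43.9.

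The average log2 level with BBP was set against the mean of the log2 levels of both other groups, and this difference is called the contrast below. Of the 9397 genes, 732 were called (7.79%). With BBP in the contrast, 458 were higher (4.87%) and 274 were lower (2.92%), at an adjusted p under 0.05 in edgeR's quasi-likelihood test. A contrast of this kind can be called when BBP lies between the other groups and 1 of them is far away, so each called gene was also compared with each group on its own. Highest with BBP alone, called above control and above BBP with PB as well as in the contrast, were 112 genes (1.19% of those tested and 24.5% of the 458). Lowest with BBP alone, called below both, were 71 genes (0.756% of those tested and 25.9% of the 274). Another 259 higher and 143 lower genes had their BBP mean outside both other groups but were called against 1 of them only, and for 87 higher and 60 lower genes the BBP mean lay between the others. Both pairwise comparisons use the same BBP libraries, so they are not independent of each other. For comparison, against control 947 genes were higher (10.1%) and 782 lower (8.32%) with BBP, and against BBP with PB 984 were higher (10.5%) and 939 lower (9.99%).

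The genes highest with BBP alone had a median contrast of 0.90 on the log2 scale, against -0.79 for the lowest and 0.0045 for all tested genes. Both pairwise changes reached 1 on the log2 scale in 31 of the 112 and in 5 of the 71. In FPKM, the 3 BBP libraries lay above all 6 others for 102 of the 112 genes, and below all 6 others for 70 of the 71. Over all tested genes the BBP libraries lay above the 6 others for 3.52% and below them for 3.43%. On counts scaled by library the same held for 110 of the 112 and 71 of the 71, beside 4.05% and 4.0% of all tested genes. Both classes were chosen on these same libraries, so their contrasts and lack of overlap follow largely from that choice. They are a description only. The file's annotation gives a product or function for 62.5% of the highest, 56.3% of the lowest and 61.6% of all tested genes.

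**Figure D1:**
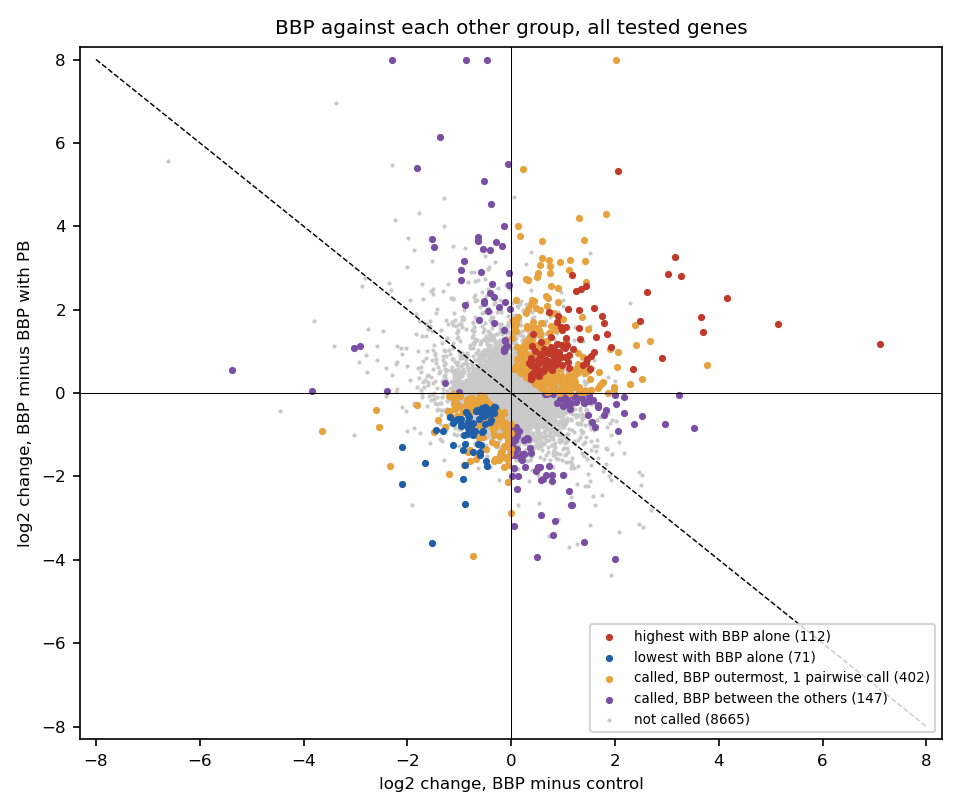
Log2 change with BBP against control (horizontal) and against BBP with PB (vertical), 1 point per tested gene, coloured by class, with values beyond 8 drawn at 8 and the dashed line marking a contrast of 0. The 112 genes highest with BBP alone fill the upper right and the 71 lowest the lower left. The 147 called genes with BBP between the others lie in the upper left and the lower right.

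The called counts depended on the libraries in the fit. Without 1 BBP library the genes higher in the contrast numbered 170 (without BBP replicate 1), 548 (replicate 2) and 203 (replicate 3), and those lower 75, 263 and 90. Without PB replicate 1, 2 or 3 they numbered 167, 196 and 197 higher and 95, 106 and 101 lower. Without control replicate 2, 258 were higher and 171 lower, and without control replicate 3, 568 and 505. Over the 9 such fits, 51 to 150 genes were highest and 28 to 124 lowest with BBP alone. Where several libraries are named below as left out, each was left out on its own. Called whichever single library was left out were 120 higher and 52 lower genes, and highest or lowest in all 9 such fits were 32 and 14 genes, which are said below to have held throughout.

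Oxygenase genes were among those with the largest contrasts. PLEOSDRAFT_1060777, annotated as a dioxygenase that uses 2-oxoglutarate, had 36.3, 9.46 and 36.7 FPKM with BBP, against 2.77, 4.48 and 3.79 FPKM with BBP and PB and 3.24, 2.50 and 3.39 FPKM in control. All 3 BBP libraries were above the other 6, and BBP replicate 2 was the lowest of the BBP libraries. Its contrast was 3.03 ± 0.36, adjusted p = 0.00249, and it held throughout. The P450-type monooxygenase gene PLEOSDRAFT_1032080 had 1051, 404 and 944 FPKM with BBP, against 186, 236 and 292 FPKM with BBP and PB and 17.5, 27.5 and 28.7 FPKM in control. Here the 3 groups were fully separate, with BBP and PB in the middle, and the contrast was 3.40 ± 0.27, adjusted p = 0.000304 with pairwise changes of 1.65 ± 0.32 against BBP with PB and 5.15 ± 0.38 against control. It too held throughout. A second P450-type gene, PLEOSDRAFT_1047061, had 17.0, 7.06 and 14.3 FPKM with BBP, against 4.80, 5.15 and 2.95 FPKM with BBP and PB and 1.08, 1.03 and 1.07 FPKM in control and the same order of groups (contrast 2.57 ± 0.26, adjusted p = 0.00135), and its call above both groups was lost without BBP replicate 1 (largest of its 3 adjusted p = 0.0503).

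PLEOSDRAFT_1114301, which carries the ontology term for monooxygenase activity but a proton pump's enzyme number, had 218, 144 and 186 FPKM with BBP, against 71.6, 62.6 and 66.5 FPKM with BBP and PB and 53.6, 69.4 and 66.7 FPKM in control. The BBP libraries overlapped no other library, both other groups lay at one level, and the gene held throughout (1.49 ± 0.12, adjusted p = 0.000367). Of the list with monooxygenase activity, 5 of 40 tested members were higher and 1 lower (12.5% and 2.5%, beside 4.87% and 2.92% of all tested genes). The list had 4 members highest with BBP alone, beside 1.19% of all tested genes. Those 4 were PLEOSDRAFT_1032080, PLEOSDRAFT_1047061, PLEOSDRAFT_1114301 and the CYP51 copy PLEOSDRAFT_1035254, which is described with the sterol genes. Without BBP replicate 2 the higher count was 7 and without BBP replicate 1 or 3 it was 4. In the wider list of P450-type genes by ontology, 7 of 103 tested members were higher and 1 lower (6.8% and 0.971%), a share near that of all genes, and the median contrast was 0.11. That higher count was 3 without BBP replicates 1 or 3 or PB replicates 1 or 3, and 14 without BBP replicate 2. The other called members named here, PLEOSDRAFT_1110291 (1.15) and PLEOSDRAFT_1067716 (1.19), were not called without BBP replicates 1 or 3 or any PB library (adjusted p = 0.0713 to 0.144) and without BBP replicates 1 or 3, any PB library or control replicates 1 or 2 (adjusted p = 0.0741 to 0.197), in that order.

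Genes annotated as NADPH dehydrogenases of the old yellow enzyme kind, flavin enzymes that reduce activated double bonds, were highest with BBP alone in 4 of 9 tested cases, beside 1.19% of all tested genes. This list was made after the values had been seen, so the count is a description only. PLEOSDRAFT_50014 had 153, 124 and 105 FPKM with BBP, against 49.7, 56.2 and 50.9 FPKM with BBP and PB and 0.762, 0.912 and 1.28 FPKM in control. It was barely detected in control, higher with BBP and PB, and higher again in every culture with BBP alone, and its contrast of 4.14 ± 0.14, adjusted p = 5.38e-07 was the largest among the 112. PLEOSDRAFT_1079582 had 119, 129.8 and 148 FPKM with BBP, against 45.4, 62.1 and 65.0 FPKM with BBP and PB and 41.4, 41.3 and 29.1 FPKM in control (1.51 ± 0.16, adjusted p = 0.0016). PLEOSDRAFT_52365 had 5.81, 5.86 and 7.43 FPKM with BBP, against 1.79, 3.26 and 1.63 FPKM with BBP and PB and 1.44, 1.71 and 2.55 FPKM in control (1.63 ± 0.24, adjusted p = 0.00582). PLEOSDRAFT_1108153 rose least, with a contrast of 0.76 and pairwise changes of 0.94 ± 0.13 against BBP with PB and 0.59 ± 0.13 against control. In all 4 the BBP libraries lay above the other 6, and all 4 held throughout.

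Some genes of glutathione use were higher with BBP. Glutathione reductase, PLEOSDRAFT_1052717, which uses NADPH to keep glutathione reduced, had 144, 139 and 164 FPKM with BBP, against 67.6, 67.9 and 76.4 FPKM with BBP and PB and 84.7, 91.8 and 76.7 FPKM in control. The BBP libraries did not overlap the others, and the gene held throughout (0.95 ± 0.10, adjusted p = 0.00173). The glutathione transferase gene PLEOSDRAFT_1055238 had 84.9, 63.3 and 155 FPKM with BBP, against 11.5, 16.4 and 19.4 FPKM with BBP and PB and 39.4, 57.5 and 23.1 FPKM in control (2.01 ± 0.32, adjusted p = 0.00753). BBP with PB was lowest there, the BBP libraries lay above all others, and its call above both groups was lost without BBP replicates 1 or 3 or control replicates 1 or 3 (largest of its 3 adjusted p = 0.0519 to 0.0881). PLEOSDRAFT_155703, another transferase, had 194, 174 and 239.6 FPKM with BBP, against 133, 143 and 123 FPKM with BBP and PB and 98.5, 105 and 73.8 FPKM in control (0.87 ± 0.15, adjusted p = 0.0105), and was called above control but not above BBP with PB (log2 change 0.50). Of the glutathione transferase list, 5 of 12 tested members were higher (41.7%, beside 4.87% of all tested genes), and the median contrast was 0.40. The count was 2 without BBP replicates 1 or 3 or any PB library. Members called with all libraries but not with fewer included PLEOSDRAFT_1113463 (1.02), not called without BBP replicates 1 or 3 or any PB library (adjusted p = 0.0549 to 0.0922). PLEOSDRAFT_1082001 (1.54) was not called without BBP replicates 1 or 3, any PB library or control replicate 2 (adjusted p = 0.0612 to 0.138). Of the wider glutathione metabolism list, 5 of 34 tested members were higher, the median change was 0.27 against control and -0.11 against BBP with PB, and the higher count was 3 without BBP replicate 3 or any PB library. How reads shared by similar family members were assigned is not given in the sources used here, so single members of such families are uncertain.

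Genes annotated as a methyltransferase, for transport and with oxidoreductase terms also rose. PLEOSDRAFT_27563, annotated as an O-methyltransferase acting on aromatic compounds, had 167, 93.1 and 203 FPKM with BBP, against 16.4, 45.1 and 28.0 FPKM with BBP and PB and 8.37, 10.9 and 8.77 FPKM in control. The 3 groups were fully separate with control lowest (3.21 ± 0.30, adjusted p = 0.00076, and 2.27 ± 0.37 against BBP with PB and 4.16 ± 0.40 against control). PLEOSDRAFT_1063268 had 44.8, 20.1 and 68.1 FPKM with BBP, against 3.43, 3.68 and 5.85 FPKM with BBP and PB and 6.24, 5.79 and 3.87 FPKM in control, and its contrast was 3.21 ± 0.33, adjusted p = 0.00145. Both other groups were at one level, and the lowest BBP library (20.1 FPKM) was well above the highest of theirs (6.24 FPKM). Its enzyme number is that of a carboxylase and its ontology term that of a zinc-binding oxidoreductase, so its product is unsettled. PLEOSDRAFT_1113387, annotated with the same zinc-binding oxidoreductase terms, had 120.3, 111 and 141 FPKM with BBP, against 27.8, 40.9 and 39.5 FPKM with BBP and PB and 43.5, 49.6 and 22.4 FPKM in control (1.73 ± 0.23, adjusted p = 0.00368). PLEOSDRAFT_1059376, annotated for hexose transport, had 64.0, 113 and 63.3 FPKM with BBP, against 24.9, 12.1 and 17.6 FPKM with BBP and PB and 28.6, 32.4 and 24.4 FPKM in control (1.81 ± 0.24, adjusted p = 0.00368). The BBP libraries of these 4 genes overlapped no other library, and all 4 held throughout. Of an O-methyltransferase list made after the values had been seen, 5 of 38 tested members were higher and 2 lower (13.2% and 5.26%). Among all tested genes 4.87% were higher and 2.92% lower. In that list 3 were highest and 2 lowest with BBP alone, beside 1.19% and 0.756% of all tested genes. With 1 library left out its higher count was 1 (without BBP replicate 1) to 6, and its lower count 1 to 3.

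**Figure D2:**
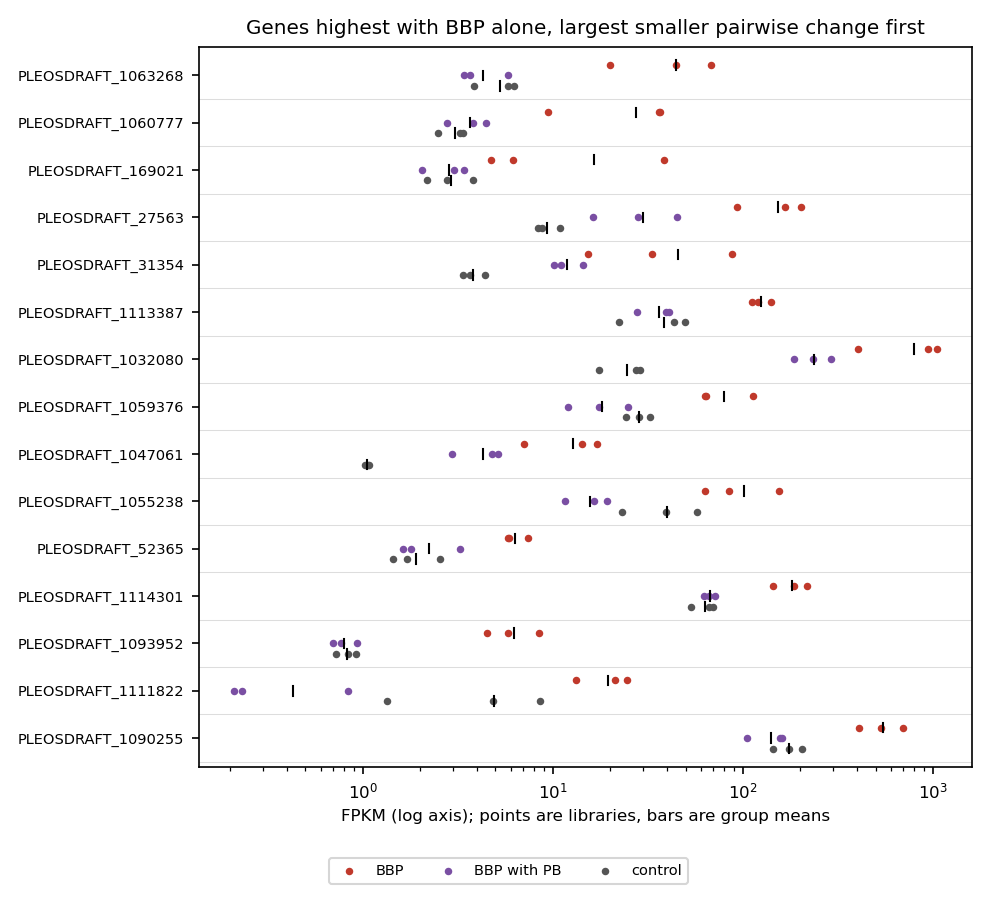
FPKM on a log axis of the 12 annotated and, at the foot, the 3 unannotated genes named by rule among those highest with BBP alone, ordered within each kind by the smaller pairwise change. Points are libraries and bars group means, and the BBP points lie right of all others in every gene, with BBP replicate 2 apart from the other BBP points in several. The naming rule itself asked for no overlap of the scaled BBP libraries.

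Of the transporter lists, 3 of 17 tested members were higher for glucose (17.6%), 6 of 43 tested members were higher for the general term (14%) and 4 of 19 tested members were higher for metal ions (21.1%). Among all tested genes 4.87% were higher. The higher count for glucose was 0 without BBP replicate 3, PB replicates 1 or 2 or control replicate 2. For the general term it was 2 without BBP replicate 3 or PB replicate 1, and 10 without BBP replicate 2, and for metal ions 0 without BBP replicate 1 or PB replicates 1 or 2. The anion carriers PLEOSDRAFT_1079646 and PLEOSDRAFT_1113357 belong to the general list. PLEOSDRAFT_1079646 had 70.6, 57.0 and 81.3 FPKM with BBP, against 20.7, 22.1 and 23.5 FPKM with BBP and PB and 48.6, 62.2 and 59.0 FPKM in control, with a contrast of 0.98 ± 0.11, adjusted p = 0.00227, and it was called above BBP with PB but not above control. PLEOSDRAFT_1113357 had a contrast of 0.61 and was called above both groups with all libraries, but not without any 1 of the 9 (largest of its 3 adjusted p = 0.0519 to 0.136).

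Some of the 12 annotated genes named by rule varied widely among the BBP cultures. PLEOSDRAFT_169021 had 6.19, 38.5 and 4.76 FPKM with BBP, against 3.03, 2.05 and 3.43 FPKM with BBP and PB and 2.17, 2.79 and 3.79 FPKM in control. BBP replicate 2 stood far above all other libraries. The contrast was 2.52, against 0.93 without BBP replicate 2, and it was not called without BBP replicate 2, any PB library or control replicate 2 (adjusted p = 0.0507 to 0.0682). The gene's call above both groups was also lost without control replicate 1 (largest of its 3 adjusted p = 0.0759). PLEOSDRAFT_31354, annotated with the enzyme number of the vacuolar protease cerevisin, had 33.2, 88.3 and 15.4 FPKM with BBP, against 11.1, 10.2 and 14.4 FPKM with BBP and PB and 4.41, 3.68 and 3.39 FPKM in control (2.75 ± 0.41, adjusted p = 0.00582), again with BBP replicate 2 highest, and its call above both groups was lost without BBP replicate 2 or any PB library (largest of its 3 adjusted p = 0.0594 to 0.101). In PLEOSDRAFT_1060777, described above, BBP replicate 2 was instead the lowest of the BBP libraries.

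Carbon metabolism held some of the most abundant genes of the comparison. Malate synthase, PLEOSDRAFT_1089338, which with isocitrate lyase makes up the glyoxylate cycle, had 4085, 4655 and 3845 FPKM with BBP, against 2420.5, 2254 and 2290.2 FPKM with BBP and PB and 3040.4, 2528 and 2703 FPKM in control. The BBP libraries lay above all others (0.72 ± 0.13, adjusted p = 0.0118), and the call above both was lost without control replicate 2 (largest of its 3 adjusted p = 0.0539). Isocitrate lyase, PLEOSDRAFT_1067024, had 2905, 3366 and 3066 FPKM with BBP, against 1956, 1876 and 1904 FPKM with BBP and PB and 2642, 2573 and 2296 FPKM in control (0.50 ± 0.11, adjusted p = 0.0302). Its BBP libraries also overlapped no other, but it was not called against control alone (log2 change 0.41, adjusted p = 0.0604), and the contrast was not called without any BBP library, any PB library or control replicate 2 (adjusted p = 0.0628 to 0.0874). Phosphoenolpyruvate carboxykinase, PLEOSDRAFT_1089535, the entry to gluconeogenesis, had 8069.7, 8720.1 and 7923 FPKM with BBP, against 5511, 5906 and 6129 FPKM with BBP and PB and 4319.6, 4185 and 3559 FPKM in control. The groups were fully separate with control lowest (0.76 ± 0.12, adjusted p = 0.00875), and the pairwise change against BBP with PB, 0.39, was not called (adjusted p = 0.0903).

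Acetyl-CoA hydrolase, PLEOSDRAFT_1088056, which also carries the term for CoA transfer to acetate, had 719, 599 and 926 FPKM with BBP, against 417, 398 and 463 FPKM with BBP and PB and 285, 282 and 328 FPKM in control (1.07 ± 0.14, adjusted p = 0.00311), with no overlap of BBP with the others. Its call above both was lost without PB replicates 1 or 2 (largest of its 3 adjusted p = 0.0539 to 0.0609). Phosphoketolase, PLEOSDRAFT_1090331, which splits sugar phosphates to acetyl phosphate, had 2276, 2001 and 2092 FPKM with BBP, against 1065, 1317 and 1369 FPKM with BBP and PB and 1396, 1159 and 1393 FPKM in control (0.72 ± 0.13, adjusted p = 0.0126). Again the BBP libraries stood above the 6 others. Its contrast was not called without BBP replicate 1 (adjusted p = 0.0604), and its call above both was lost without BBP replicate 1 or PB replicate 1 (largest of its 3 adjusted p = 0.0604 to 0.0675). Fructose-bisphosphatase, PLEOSDRAFT_1110500, a gluconeogenic enzyme, had a contrast of 0.56, and 1 control library (687 FPKM) lay above the lowest BBP library (666 FPKM). That contrast was not called without BBP replicates 2 or 3 or PB replicates 2 or 3 (adjusted p = 0.0502 to 0.0812), and of the 9 fits with 1 library left out only that without BBP replicate 1 still called the gene above both groups. A glyceraldehyde 3-phosphate dehydrogenase gene, PLEOSDRAFT_1090663, named after its values were seen, had 4615, 4391 and 4127 FPKM with BBP, against 2433, 2654 and 2863 FPKM with BBP and PB and 2712, 2979 and 2911 FPKM in control (0.67 ± 0.10, adjusted p = 0.00505) and held throughout.

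Among all tested genes 4.87% were higher and 2.92% lower in the contrast. Of the glyoxylate and dicarboxylate list, 4 of 37 tested members were higher (10.8%), and the higher count was 1 without BBP replicate 1 or PB replicates 1 or 2. Of the glycolysis and gluconeogenesis list, 6 of 57 tested members were higher and 3 lower (10.5% and 5.26%). The list had 3 members highest with BBP alone, beside 1.19% of all tested genes. Its higher count was 3 without BBP replicate 3 or PB replicates 2 or 3, and its lower count 1 without BBP replicates 1 or 3, any PB library or control replicate 2, and 5 without BBP replicate 2. Compared with control, 18 of these 57 were higher with BBP and 1 lower, with a median of 0.29. Compared with BBP and PB, 6 were higher and 20 lower, with a median of -0.30. Of all tested genes, 10.1% were higher and 8.32% lower than in control, and 10.5% and 9.99% than with BBP and PB. In the pentose phosphate list 3 of 31 tested members were higher (9.68%), and the higher count was 1 without BBP replicates 1 or 3 or PB replicates 2 or 3.

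The peroxisome, where fungi carry out much of their fatty acid oxidation, was the pathway list of more than 20 members with the largest share called higher. There 15 of 70 tested members were higher and 1 lower (21.4% and 1.43%, beside 4.87% and 2.92% of all tested genes), with a median contrast of 0.26. The list had 2 members highest with BBP alone, beside 1.19% of all tested genes. Against control 37 of the 70 were higher (52.9%, beside 10.1% of all tested genes) and 1 lower, with a median change of 0.50. Against BBP with PB 6 were higher (8.57%, beside 10.5%) and 9 lower (12.9%, beside 9.99%), with a median of -0.03. The higher count in the contrast was 3 without PB replicate 1. Of these, PLEOSDRAFT_1041403, annotated with the enzyme number of sarcosine oxidase, had 19.7, 17.3 and 26.5 FPKM with BBP, against 6.88, 10.7 and 8.87 FPKM with BBP and PB and 12.3, 11.7 and 10.5 FPKM in control. Its BBP libraries overlapped no other, and it held throughout (1.07 ± 0.17, adjusted p = 0.00875). PLEOSDRAFT_33522 had 255, 319 and 336 FPKM with BBP, against 253, 229 and 242 FPKM with BBP and PB and 60.8, 75.5 and 63.3 FPKM in control (1.26 ± 0.11, adjusted p = 0.00052). In it control was low and BBP lay close to BBP with PB (log2 change 0.23, not called), and its orthology (a peroxisomal carrier) and its ontology term (a ribosomal protein) disagree. PLEOSDRAFT_1068548, annotated as a long-chain acyl-CoA ligase by enzyme number, had a contrast of 1.47 and was not called without BBP replicates 1 or 3 or PB replicate 1 (adjusted p = 0.055 to 0.0699). Catalase, PLEOSDRAFT_1090819, which breaks down hydrogen peroxide, had a contrast of 0.90 with a change of 0.12 against BBP with PB, and was not called without BBP replicates 1 or 3, any PB library or control replicates 1 or 2 (adjusted p = 0.0629 to 0.165). In fatty acid degradation 7 of 49 tested members were higher and 1 lower (14.3% and 2.04%), and the higher count was 0 without BBP replicate 3. Its 1 gene highest with BBP alone was the acyl-CoA oxidase PLEOSDRAFT_35196 (0.79), not called without BBP replicates 1 or 3, any PB library or control replicate 2 (adjusted p = 0.0505 to 0.11). Compared with control, 20 of the 49 fatty acid degradation genes were higher with BBP and 0 lower, with a median of 0.36. Compared with BBP and PB, 3 were higher and 16 lower, with a median of -0.20. Over all tested genes these pairwise shares were 10.1% and 8.32% against control, and 10.5% and 9.99% against BBP with PB.

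**Figure D3:**
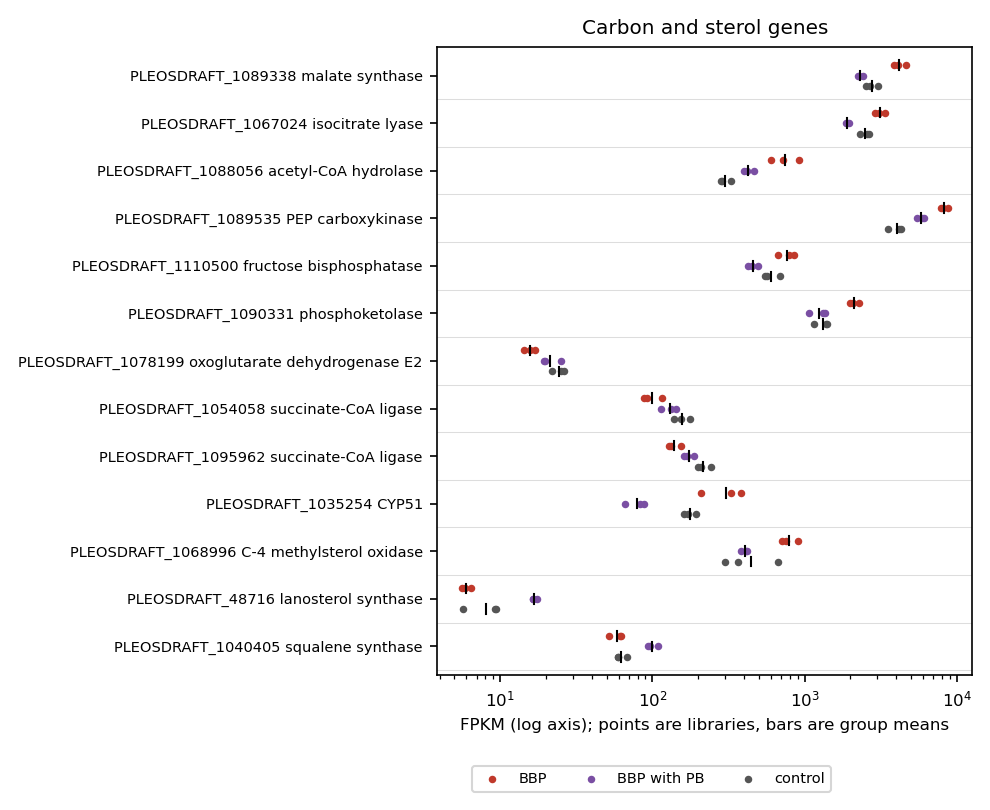
FPKM on a log axis of 13 genes of acetyl-CoA use, the citrate cycle and sterol synthesis, with points for libraries and bars for group means. The BBP points lie to the right in malate synthase, acetyl-CoA hydrolase and phosphoketolase and to the left in PLEOSDRAFT_1078199 and PLEOSDRAFT_1095962 of the oxoglutarate and succinate steps, while in PLEOSDRAFT_1054058 they overlap BBP with PB. The CYP51 copy PLEOSDRAFT_1035254 is lowest with BBP and PB, and lanosterol synthase is highest there.

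Genes of ergosterol synthesis, the pathway to the main membrane sterol of fungi, went both ways. Of the copies of CYP51, the P450 that removes a methyl group from lanosterol, only PLEOSDRAFT_1035254 is described here. It had 327, 379 and 209 FPKM with BBP, against 66.4, 82.9 and 88.1 FPKM with BBP and PB and 162, 171 and 194 FPKM in control. The 3 groups were separate with BBP and PB lowest (1.37 ± 0.16, adjusted p = 0.00261), and the call above both was lost without control replicate 2 (largest of its 3 adjusted p = 0.0512). C-4 methylsterol oxidase, PLEOSDRAFT_1068996, of the next steps, had 760.1, 711 and 910.2 FPKM with BBP, against 381, 410.1 and 421 FPKM with BBP and PB and 298, 366 and 670.4 FPKM in control (0.92 ± 0.20, adjusted p = 0.0247). All BBP libraries lay above the others, with control replicate 3 nearest, and the contrast was not called without BBP replicates 1 or 3 or any PB library (adjusted p = 0.0583 to 0.0919). The gene's call above both was also lost without control replicate 2 (largest of its 3 adjusted p = 0.0738). Farnesyl diphosphate synthase, PLEOSDRAFT_41938, which makes the isoprenoid precursor, had 13.2, 11.6 and 11.96 FPKM with BBP, against 7.32, 8.33 and 7.42 FPKM with BBP and PB and 1.96, 3.44 and 2.41 FPKM in control (1.46 ± 0.15, adjusted p = 0.00135), and its call above both was lost without any BBP library or any PB library (largest of its 3 adjusted p = 0.0598 to 0.159). Lanosterol synthase, PLEOSDRAFT_48716, had 6.46, 5.58 and 5.86 FPKM with BBP, against 16.5, 17.4 and 16.4 FPKM with BBP and PB and 5.70, 9.41 and 9.22 FPKM in control. It was lower in the contrast (-0.96 ± 0.13, adjusted p = 0.0043), yet against control alone the change was -0.32 and not called, and its BBP and control libraries overlapped. Squalene synthase, PLEOSDRAFT_1040405, was likewise called only through its high level with BBP and PB (contrast -0.43, change against control 0.02), and not without any BBP library, any PB library or control replicates 1 or 2 (adjusted p = 0.0584 to 0.103). In the steroid list as a whole, 3 of 37 tested members were higher and 4 lower (8.11% and 10.8%, beside 4.87% and 2.92% of all tested genes). Its higher count was 1 without BBP replicates 1 or 3 or any PB library, and 5 without control replicate 3, and its lower count 1 without any BBP library, any PB library or control replicate 2.

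Among genes lowest with BBP alone, PLEOSDRAFT_1045423 had the largest change by the smaller of its pairwise comparisons. Its product is described as a plant-expansin-like protein, a family of secreted proteins known in plants for loosening cell walls. It had 17.5, 21.8 and 19.6 FPKM with BBP, against 84.9, 74.7 and 91.7 FPKM with BBP and PB and 49.9, 63.5 and 166 FPKM in control. The BBP libraries were close together and far under the others, of which control replicate 3 was highest, and the gene held throughout (-2.15 ± 0.33, adjusted p = 0.00696). The laccase gene PLEOSDRAFT_51622, of the copper oxidases that act on phenols, had 3.12, 3.30 and 2.99 FPKM with BBP, against 17.5, 16.9 and 21.1 FPKM with BBP and PB and 6.27, 8.86 and 3.72 FPKM in control (-1.78 ± 0.25, adjusted p = 0.0043). BBP with PB was highest, no BBP library overlapped, and control replicate 3 lay near the BBP level. Its call below both was lost without any BBP library, any PB library or control replicates 1 or 2 (largest of its 3 adjusted p = 0.0618 to 0.145).

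A gene annotated as a phosphatidylethanolamine methyltransferase, PLEOSDRAFT_1114106, an enzyme class that makes phosphatidylcholine, had 21.9, 20.0 and 18.4 FPKM with BBP, against 39.9, 36.2 and 36.7 FPKM with BBP and PB and 33.8, 43.8 and 44.9 FPKM in control. The BBP libraries lay under both other groups, which shared one level, and the gene held throughout (-0.96 ± 0.10, adjusted p = 0.00163). A glycerol-3-phosphate dehydrogenase, PLEOSDRAFT_1036512, which links sugar metabolism to glycerol and glycerolipids, also held throughout (-0.52 ± 0.09, adjusted p = 0.00875, and -0.46 ± 0.10 against BBP with PB and -0.59 ± 0.10 against control). It was named after its values were seen. Of the glycerophospholipid list, 3 of 63 tested members were higher and 6 lower (4.76% and 9.52%, beside 4.87% and 2.92% of all tested genes). The list had 3 members lowest with BBP alone, beside 0.756% of all tested genes. Of the lower members, calls numbered 2 without BBP replicates 1 or 3, PB replicates 1 or 3 or control replicate 2, and 10 without control replicate 3. Compared with control, 10 of the 63 were higher with BBP and 4 lower, and compared with BBP and PB, 5 were higher and 16 lower. Over all tested genes these pairwise shares were 10.1% and 8.32% against control, and 10.5% and 9.99% against BBP with PB. PLEOSDRAFT_1110642, an ABC transporter of the vacuole membrane by its terms, had 12.1, 7.22 and 10.1 FPKM with BBP, against 17.5, 19.0 and 17.4 FPKM with BBP and PB and 18.0, 22.6 and 16.3 FPKM in control (-0.91 ± 0.17, adjusted p = 0.0141), and its call below both was lost without control replicate 2 (largest of its 3 adjusted p = 0.0564).

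Nuclear functions were represented by PLEOSDRAFT_1060621, annotated to the CAF-1 complex that places histones on new DNA, and PLEOSDRAFT_1107623, annotated to the nuclear pore. PLEOSDRAFT_1060621 had 8.89, 7.52 and 8.22 FPKM with BBP, against 12.6, 14.7 and 13.2 FPKM with BBP and PB and 13.9, 14.8 and 16.7 FPKM in control (-0.80 ± 0.10, adjusted p = 0.00284). PLEOSDRAFT_1107623 had 7.47, 6.58 and 7.93 FPKM with BBP, against 10.2, 10.6 and 12.2 FPKM with BBP and PB and 11.5, 14.3 and 16.6 FPKM in control (-0.76 ± 0.12, adjusted p = 0.00838). PLEOSDRAFT_28905, annotated as a subunit of an N-terminal protein acetyltransferase, had 12.1, 14.5 and 12.8 FPKM with BBP, against 21.9, 21.1 and 20.4 FPKM with BBP and PB and 22.7, 25.8 and 34.4 FPKM in control (-0.88 ± 0.14, adjusted p = 0.00784). In all 3 the BBP libraries lay under the other 6, and all 3 held throughout. Signalling genes included PLEOSDRAFT_1093096, assigned to the 14-3-3 orthology of phosphoprotein-binding adaptors, at 379, 436 and 439 FPKM with BBP, against 565, 580.1 and 590.4 FPKM with BBP and PB and 732, 830.5 and 825 FPKM in control. Its groups were fully separate with control highest (-0.70 ± 0.09, adjusted p = 0.00368), and it held throughout. PLEOSDRAFT_1053841, with the enzyme number of a MAP kinase, had 136, 163 and 140.2 FPKM with BBP, against 359.7, 423 and 363 FPKM with BBP and PB and 186, 274 and 266 FPKM in control (-1.05 ± 0.12, adjusted p = 0.00243), and its call below both was lost without control replicate 2 (largest of its 3 adjusted p = 0.0542). In the other direction a protein serine/threonine kinase gene, PLEOSDRAFT_38487, had 259.6, 229 and 256 FPKM with BBP, against 122, 123 and 132 FPKM with BBP and PB and 109, 117 and 161 FPKM in control and held throughout (0.97 ± 0.11, adjusted p = 0.00237).

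**Figure D4:**
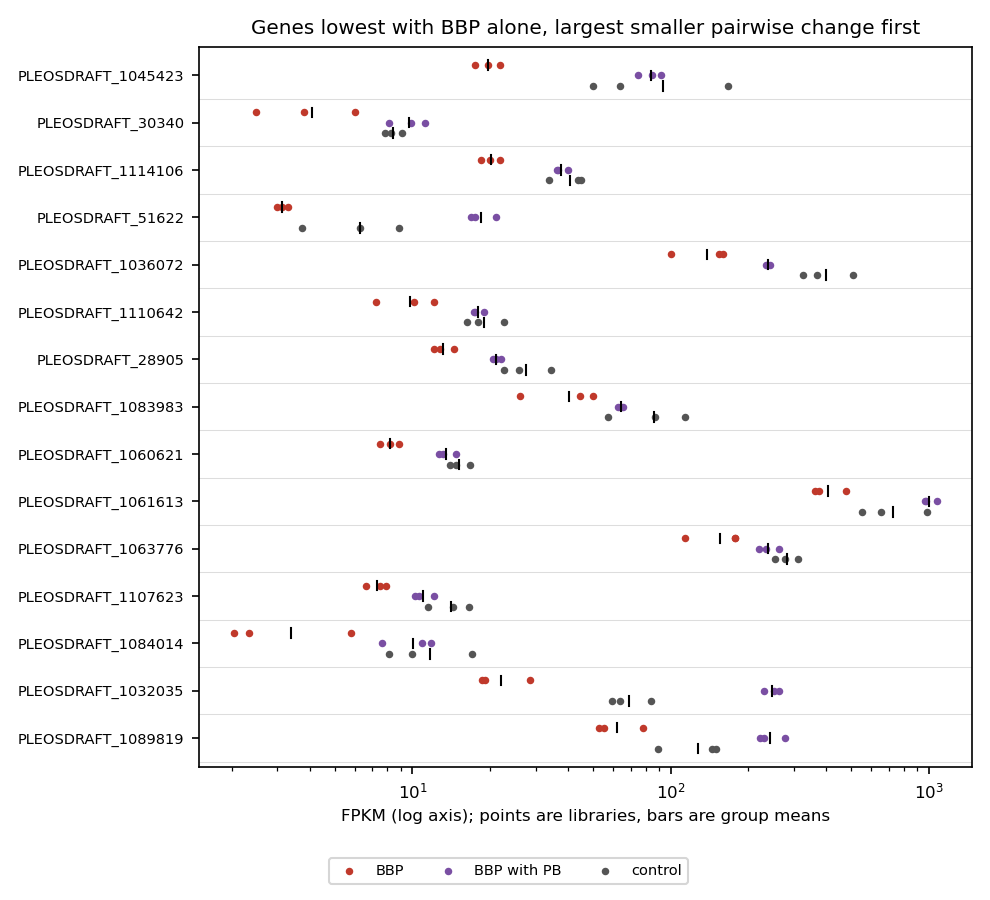
FPKM on a log axis of the 12 annotated and, at the foot, the 3 unannotated genes named by rule among those lowest with BBP alone, with points for libraries and bars for group means. BBP points lie left of all others in every gene, and in PLEOSDRAFT_51622 and PLEOSDRAFT_1032035 the BBP with PB points are far to the right. As for the highest genes, the naming rule asked for no overlap of the scaled BBP libraries.

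The calls of the remaining annotated genes in the plot of the lowest were lost without single libraries. The gene PLEOSDRAFT_1036072, annotated as a protein carboxyl methyltransferase, had 154, 101 and 159 FPKM with BBP, against 234, 244 and 235 FPKM with BBP and PB and 508, 326 and 371 FPKM in control (-1.17 ± 0.21, adjusted p = 0.013), and its call below both was lost without BBP replicates 1 or 2 or any PB library (largest of its 3 adjusted p = 0.0507 to 0.0723). PLEOSDRAFT_1061613, with terms for a secreted protein only, had 479, 363 and 375 FPKM with BBP, against 1075, 966 and 978 FPKM with BBP and PB and 552, 654 and 981 FPKM in control (-1.07 ± 0.16, adjusted p = 0.00663), and its call below both was lost without BBP replicates 2 or 3 (largest of its 3 adjusted p = 0.0646 to 0.0659). PLEOSDRAFT_30340 (-1.15), of the peroxisome list, was not called without BBP replicate 3, PB replicates 1 or 3 or control replicate 2 (adjusted p = 0.0505 to 0.0838). Its call below both was also lost without BBP replicate 2, PB replicate 2 or control replicates 1 or 3 (largest of its 3 adjusted p = 0.0512 to 0.0724). PLEOSDRAFT_1063776 (-0.73), described as a family 105 glycoside hydrolase, was not called without BBP replicate 1, PB replicates 1 or 2 or control replicate 2 (adjusted p = 0.052 to 0.0604), and PLEOSDRAFT_1083983 (-0.88) was not called without any BBP library, any PB library or control replicate 2 (adjusted p = 0.0566 to 0.0979).

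In the citrate cycle, which oxidizes acetyl-CoA, the genes lowest with BBP alone were those of neighbouring steps. The E2 subunit of 2-oxoglutarate dehydrogenase, PLEOSDRAFT_1078199, had 16.9, 15.8 and 14.3 FPKM with BBP, against 24.9, 19.3 and 19.7 FPKM with BBP and PB and 21.8, 25.0 and 26.3 FPKM in control (-0.54 ± 0.11, adjusted p = 0.0236). The genes PLEOSDRAFT_1054058 and PLEOSDRAFT_1095962, annotated as succinate-CoA ligase, catalyse the following step. PLEOSDRAFT_1095962 had 154, 133 and 128 FPKM with BBP, against 189, 162 and 170.0 FPKM with BBP and PB and 198, 208 and 242 FPKM in control, and contrasts were -0.48 for it and -0.53 for PLEOSDRAFT_1054058. The BBP libraries of PLEOSDRAFT_1078199 and PLEOSDRAFT_1095962 lay under all others, whereas 1 library with BBP and PB (114 FPKM) fell under the highest BBP library (116 FPKM) for PLEOSDRAFT_1054058. These differences were small and the contrast calls were lost without BBP replicates 1 or 3 (adjusted p = 0.0601 to 0.0837), without BBP replicate 3 or PB replicates 1 or 3 (adjusted p = 0.0564 to 0.0903) and without BBP replicates 2 or 3, PB replicates 1 or 3 or control replicate 2 (adjusted p = 0.0505 to 0.0986), in the order PLEOSDRAFT_1078199, PLEOSDRAFT_1095962 and PLEOSDRAFT_1054058. The call of PLEOSDRAFT_1078199 below both groups was also lost without PB replicate 1 or control replicate 2 (largest of its 3 adjusted p = 0.0547 to 0.0563). That of PLEOSDRAFT_1095962 was also lost without BBP replicate 2 or PB replicate 2 (largest of its 3 adjusted p = 0.0539 to 0.056). In the list, 3 of 37 tested members were higher and 5 lower (8.11% and 13.5%, beside 4.87% and 2.92% of all tested genes). The list had 3 members lowest with BBP alone, beside 0.756% of all tested genes. Of its lower members, calls numbered 0 without BBP replicate 3. The higher members included phosphoenolpyruvate carboxykinase, which this KEGG pathway also holds. Their count was 1 without BBP replicates 1 or 3 or PB replicates 1 or 3. The median contrast of the 37 was 0.0068, and the 2 other groups differed. Set against control, 12 of the 37 were higher with BBP and 4 lower, with a median of 0.13. Set against BBP with PB, 1 was higher and 13 lower, with a median of -0.29. Over all tested genes these pairwise shares were 10.1% and 8.32% against control, and 10.5% and 9.99% against BBP with PB.

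Of genes annotated as structural constituents of the ribosome, 2 of 149 tested members were higher and 8 lower (1.34% and 5.37%, beside 4.87% and 2.92% of all tested genes). The median contrast over all 149 was -0.23, beside 0.0045 over all tested genes. The lower count was 0 without BBP replicate 3, PB replicates 1 or 3 or control replicate 2, and 13 without BBP replicate 2. It was 33 with DESeq2, and 1 with limma or when libraries were scaled by their totals alone. Against BBP with PB alone 50 of the 149 were lower (33.6%, beside 9.99% of all tested genes), and against control 14 (9.4%, beside 8.32%). The member lowest with BBP alone with the larger change was PLEOSDRAFT_1088477, of the large subunit, at 123, 131 and 92.2 FPKM with BBP, against 199, 147 and 196 FPKM with BBP and PB and 162, 187 and 183 FPKM in control. Its BBP libraries lay below the others (-0.63 ± 0.14, adjusted p = 0.0248), but it was not called without BBP replicates 1 or 3, PB replicates 1 or 3 or control replicate 2 (adjusted p = 0.0505 to 0.0832). Its call below both was also lost without control replicates 1 or 3 (largest of its 3 adjusted p = 0.057 to 0.0793). The small-subunit processome, which assembles ribosomes, had a median contrast of -0.28, and 1 of 40 tested members was lower. That count was 0 without BBP replicate 3 or any PB library, and 4 without control replicate 1, and 8 with DESeq2. The processome's median change was -0.62 against control, with 1 of the 40 higher and 21 lower. It was 0.085 against BBP with PB, with 2 higher and 2 lower. Over all tested genes these pairwise shares were 10.1% higher and 8.32% lower against control, and 10.5% and 9.99% against BBP with PB. DNA replication had a median of -0.33, and 3 of 49 tested members were higher and 1 lower. Its higher count was 0 without BBP replicates 1 or 2 or any PB library. Its lower count was 0 without BBP replicates 2 or 3 or any PB library, and 4 without control replicate 3, and 9 with DESeq2.

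Among genes without a known product, the 3 named by rule in each direction were as follows. PLEOSDRAFT_1093952 had 8.48, 4.50 and 5.83 FPKM with BBP, against 0.765, 0.935 and 0.701 FPKM with BBP and PB and 0.720, 0.919 and 0.839 FPKM in control (2.94 ± 0.20, adjusted p = 0.000138). PLEOSDRAFT_1090255, an abundant gene, had 535, 411 and 695 FPKM with BBP, against 158, 105 and 161 FPKM with BBP and PB and 175, 205 and 144 FPKM in control (1.80 ± 0.19, adjusted p = 0.0016). Both held throughout, with both other groups at one level. PLEOSDRAFT_1111822 had 13.2, 21.1 and 24.6 FPKM with BBP, against 0.232, 0.211 and 0.842 FPKM with BBP and PB and 8.56, 4.84 and 1.35 FPKM in control. Its groups were separate with BBP and PB near 0 (3.69 ± 0.53, adjusted p = 0.00489), and its call above both was lost without any BBP library, PB replicates 1 or 2 or control replicate 2 (largest of its 3 adjusted p = 0.0563 to 0.117). On the lower side, PLEOSDRAFT_1032035 had 28.5, 18.7 and 19.2 FPKM with BBP, against 251, 230.0 and 263 FPKM with BBP and PB and 59.6, 63.8 and 84.1 FPKM in control (-2.56 ± 0.17, adjusted p = 0.000107), the largest fall in the comparison. PLEOSDRAFT_1089819 had 52.6, 78.5 and 55.4 FPKM with BBP, against 230.0, 278 and 221 FPKM with BBP and PB and 89.6, 144 and 150.1 FPKM in control (-1.50 ± 0.18, adjusted p = 0.00263). In both, BBP with PB was highest, control between and BBP lowest without overlap, and both held throughout. PLEOSDRAFT_1084014 (-1.68) was not called without BBP replicates 2 or 3 or PB replicates 1 or 2 (adjusted p = 0.0588 to 0.0875). Its call below both was also lost without control replicate 2 (largest of its 3 adjusted p = 0.0722).

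In 3 places genes highest with BBP alone stood next to each other. PLEOSDRAFT_1074021 and PLEOSDRAFT_1061513 lie 258 bases apart on one strand, and PLEOSDRAFT_1089270 and PLEOSDRAFT_9817 lie 397 bases apart on one strand. PLEOSDRAFT_1111480 and the kinase gene PLEOSDRAFT_38487 lie 746 bases apart on opposite strands. Contrasts were 1.25 and 1.00 in the first pair, 0.75 and 0.85 in the second and 0.64 and 0.97 in the third. PLEOSDRAFT_1074021, PLEOSDRAFT_1111480 and PLEOSDRAFT_38487 held throughout, whereas the calls above both groups were lost for PLEOSDRAFT_1061513 without BBP replicates 1 or 3, any PB library or control replicate 2 (largest of its 3 adjusted p = 0.0596 to 0.135), for PLEOSDRAFT_1089270 without BBP replicate 1, PB replicate 1 or control replicate 2 (largest of its 3 adjusted p = 0.0515 to 0.0623) and for PLEOSDRAFT_9817 without BBP replicates 1 or 2, any PB library or control replicates 1 or 2 (largest of its 3 adjusted p = 0.0608 to 0.0914). The strand setting of the counting is not given in the sources used here, and reads that run from one gene into its neighbour were not tested.

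The 147 called genes with BBP between the other groups were of another kind, since such a contrast can be called through 1 distant group. The hydrophobin gene PLEOSDRAFT_163649, of the small proteins that coat hyphae, had 13.5, 4.28 and 10.5 FPKM with BBP, against 0, 0 and 0 FPKM with BBP and PB and 31.0, 31.2 and 89.3 FPKM in control. It was lower with BBP than in control and listed at 0 in every library with PB, and its contrast was called higher with all libraries but not without BBP replicates 1 or 3, any PB library or control replicates 1 or 2 (adjusted p = 0.0549 to 0.108). A second hydrophobin, PLEOSDRAFT_1060612, had 238, 109.8 and 187 FPKM with BBP, against 14.4, 10.2 and 19.2 FPKM with BBP and PB and 408, 444 and 774 FPKM in control and a contrast of 1.01, not called without BBP replicates 1 or 3, any PB library or control replicates 1 or 2 (adjusted p = 0.0624 to 0.188). These were the only members of the hydrophobin list called, of 15 tested (13.3%, beside 4.87% of all tested genes called higher), and the count was 0 without BBP replicate 1, any PB library or control replicates 1 or 2. PLEOSDRAFT_1111275, with no known product, had 38.5, 32.2 and 32.4 FPKM with BBP, against 0.659, 0.208 and 1.24 FPKM with BBP and PB and 31.2, 38.6 and 46.3 FPKM in control (2.72 ± 0.27, adjusted p = 0.0013). BBP and control overlapped, and the libraries with PB lay far below both. On the lower side the agmatinase gene PLEOSDRAFT_1065795 had 12.7, 14.9 and 13.1 FPKM with BBP, against 189, 202 and 186 FPKM with BBP and PB and 9.49, 11.9 and 9.79 FPKM in control (-1.72 ± 0.10, adjusted p = 7.78e-05), and the ABC transporter gene PLEOSDRAFT_1035372 had 71.5, 92.6 and 80.1 FPKM with BBP, against 811, 1018 and 859 FPKM with BBP and PB and 35.4, 34.6 and 28.3 FPKM in control (-1.08 ± 0.15, adjusted p = 0.0043). In both, BBP with PB was far highest, and BBP was called above control, with log2 changes of 0.49 for PLEOSDRAFT_1065795 and 1.41 for PLEOSDRAFT_1035372. Stearoyl-CoA desaturase, PLEOSDRAFT_1092456, which makes unsaturated fatty acids, showed the same order, with 10.1, 8.54 and 9.34 FPKM with BBP, against 37.2, 40.9 and 33.8 FPKM with BBP and PB and 4.71, 6.68 and 6.06 FPKM in control (-0.66 ± 0.11, adjusted p = 0.0117). PLEOSDRAFT_1111275 and these last 3 genes were called whichever library was left out.

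Other genes had their BBP mean outside both groups but were called against 1 of them. The gene PLEOSDRAFT_1109402, with an alcohol oxidase enzyme number, had 195, 93.0 and 261 FPKM with BBP, against 19.7, 20.7 and 29.1 FPKM with BBP and PB and 130.4, 129 and 88.7 FPKM in control (1.82 ± 0.28, adjusted p = 0.00672). An amidase gene, PLEOSDRAFT_162326, had 77.4, 23.4 and 135 FPKM with BBP, against 3.22, 7.15 and 6.99 FPKM with BBP and PB and 37.6, 30.3 and 27.3 FPKM in control (2.54 ± 0.43, adjusted p = 0.0106), and an acetylcholinesterase-type carboxylesterase, PLEOSDRAFT_1060369, had 23.03, 13.98 and 23.5 FPKM with BBP, against 3.47, 4.06 and 4.66 FPKM with BBP and PB and 14.9, 17.9 and 15.2 FPKM in control (1.32 ± 0.17, adjusted p = 0.00291). In these 3 BBP with PB was far lowest, and BBP overlapped control without a call against it. The plasma membrane proton pump PLEOSDRAFT_1110948, which drives nutrient uptake, had 455, 374 and 480.2 FPKM with BBP, against 346, 237 and 252 FPKM with BBP and PB and 194, 207 and 179 FPKM in control (0.91 ± 0.15, adjusted p = 0.00851), separate from both groups but called above control only. All 4 contrasts were called whichever library was left out.

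**Figure D5:**
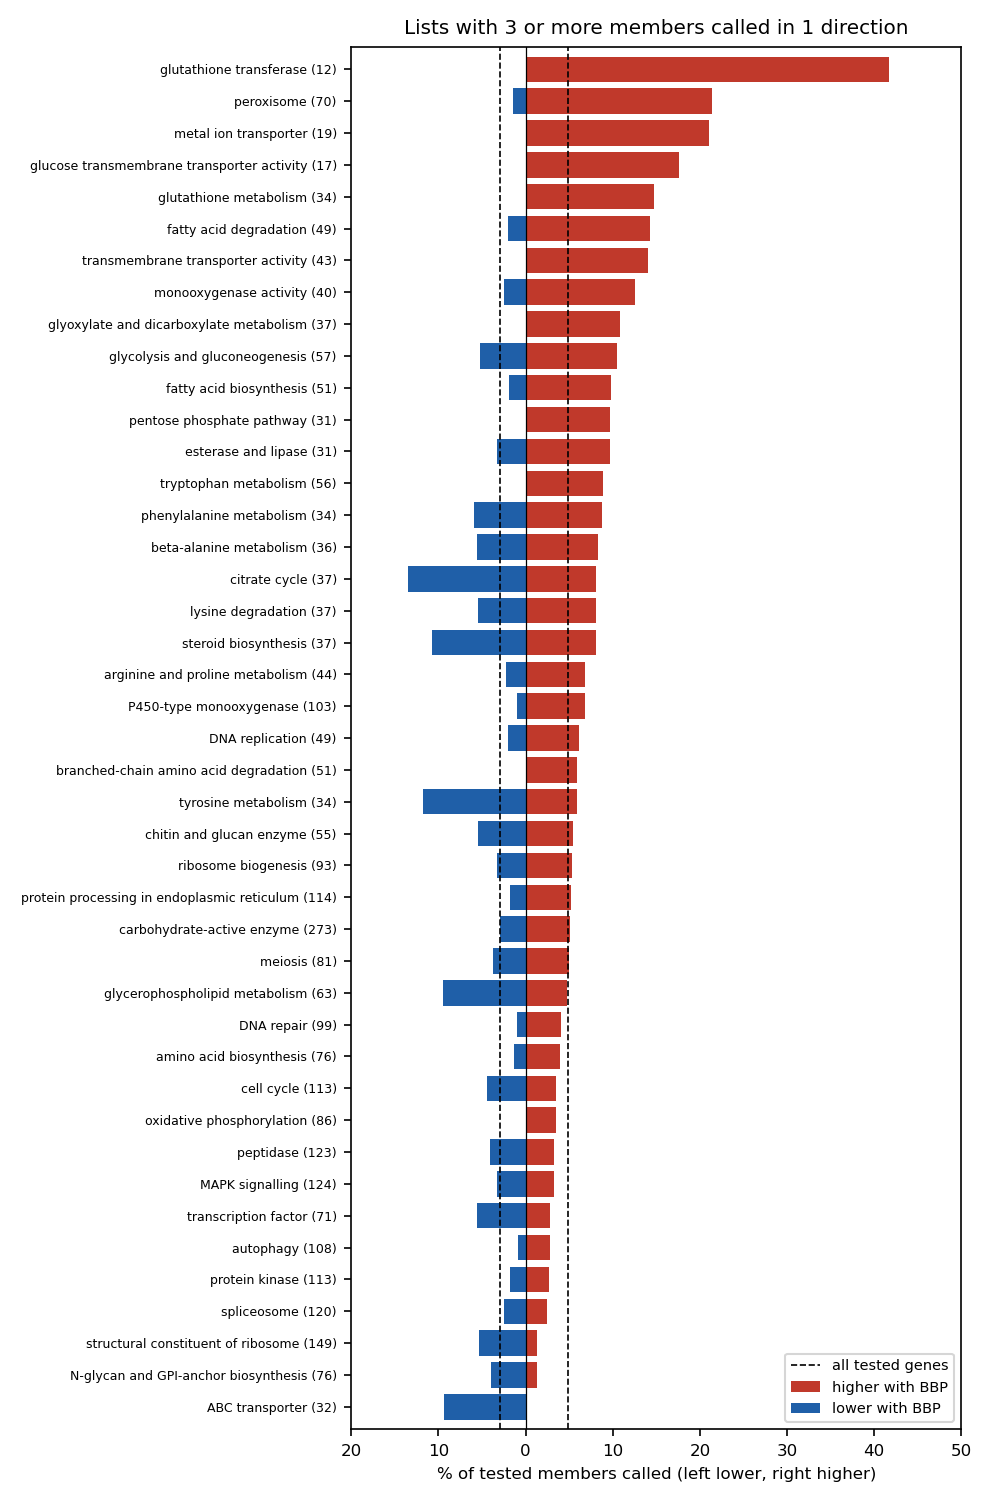
Share of tested members called higher (right, red) and lower (left, blue) with BBP in the contrast, for the 43 lists with at least 10 tested members and at least 3 called in 1 direction, with the number of tested members in brackets. Dashed lines mark the shares over all 9397 tested genes, 4.87% higher and 2.92% lower. Glutathione transferases and the peroxisome stand furthest right, and the citrate cycle furthest left.

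Counts for other lists are given for comparison, to be read beside 4.87% higher and 2.92% lower over all tested genes. Of carbohydrate-active enzymes, 14 of 273 tested members were higher and 8 lower (5.13% and 2.93%). Those counts were 4 without BBP replicate 1 and 19 without BBP replicate 2 on the higher side, and 3 to 13 on the lower side with 1 library left out. In laccases and multicopper oxidases 1 of 11 tested members was higher and 1 lower, the higher being the Fet3-type ferroxidase PLEOSDRAFT_62392 of iron uptake (0.88), not called without BBP replicates 1 or 3, any PB library or control replicate 2 (adjusted p = 0.0549 to 0.103). Among ABC transporters 3 of 32 tested members were lower (9.38%). Pairwise, 8 of the 32 were higher and 3 lower than in control, and 3 higher and 7 lower than with BBP and PB. These pairwise counts stand beside other shares of all tested genes, 10.1% and 8.32% against control and 10.5% and 9.99% against BBP with PB. In MAPK signalling 4 of 124 tested members were higher and 4 lower (3.23% and 3.23%). With 1 library left out these were 2 (without BBP replicates 1 or 3 or any PB library) to 6 higher and 3 to 8 lower (without control replicate 3), and with DESeq2 8 and 11. In the proteasome 2 of 44 tested members were higher and 1 lower (4.55% and 2.27%). The higher count was 0 without BBP replicates 1 or 3, any PB library or control replicate 2, and the lower count was 0 without any BBP library, any PB library or control replicate 1, and 4 without control replicate 3. In oxidative phosphorylation 3 of 86 tested members were higher, and without control replicate 3 another 3 were lower. Besides the fruiting body list, 4 lists had 0 members called in the contrast in edgeR, and limma on log2(FPKM + 1) called 0 there too. These were 11 ligninolytic and dye peroxidases (3 with an unadjusted p under 0.05, 0 called by DESeq2), 25 galactose metabolism genes (6 and 0), 18 sulfur metabolism genes (1 and 1) and 4 mating type genes (0 and 0). In starch and sucrose metabolism 1 of 74 tested members was higher, with a median of 0.12, and the higher count was 0 without BBP replicate 3, and 4 without control replicate 3.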

How the data were processed

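Poly(A) RNA of 9 mycelial cultures was sequenced as paired ends from strand-marked libraries, per the labels' protocols. The authors deposited 1 table with a count and an FPKM value per gene and library. HISAT2, StringTie and fastp are named in the submitters' processing notes. The sources used here do not give their versions or roles, the genome build or the counting rule. Of 10682 genes, 59 were tRNA and were left out. Gene names and functions come from the table's annotation, which gives a product or other function for 6118 genes. The reference gene table at hand (11849 genes) matched 0 of its identifiers.

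The genes whose FPKM averaged at least 1 were tested on the deposited counts with edgeR 4.0.16 in R 4.3.3 (trimmed-mean normalization, 1 model over the 3 groups, quasi-likelihood test). The contrast took BBP minus 0.5 of each other group. P-values were adjusted by Benjamini-Hochberg over 9397 genes, with a threshold of 0.05. The values after ± are approximate standard errors of log2 changes. Each was taken as the size of the change divided by the square root of the quasi-likelihood test's F statistic. Normalization factors were 0.918 to 1.129 and the common biological coefficient of variation was 0.201. Replicates differed beyond counting noise (chi-square of 43.2 to 355 per degree of freedom). The series design calls them biological replicates and says no more on their origin. The members and the 70 gene lists were chosen with earlier results of these data known, and 3 further lists were added after the values had been seen. Described by rule were, among genes highest or lowest with BBP alone whose scaled BBP libraries did not overlap the others and whose mean FPKM was at least 5, the 12 annotated and 3 unannotated genes per direction with the largest smaller pairwise change, and up to 4 called genes per list. A further set, named after their values were seen, is marked as such or is the 3 neighbour pairs and PLEOSDRAFT_1111275. The fits were checked on simulated counts with known changes. Alternatives were DESeq2 1.42.0, its size factors in edgeR, library size as the sole scaling, no filter, a mean FPKM of at least 5, limma 3.58.1 on log2(FPKM + 1) and on log2(FPKM + 0.1), a replicate block, 2 stricter rules, and each library left out. Tables came from pandas 2.3.3 and plots from matplotlib 3.10.9, in Python 3.11.15.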

Additional observations from a re-analysis of the deposited data

How the results depend on the processing

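The contrast called 458 genes higher and 274 lower, and 112 genes were highest and 71 lowest with BBP alone. With DESeq2 these numbers were 805, 573, 191 and 122, and when libraries were scaled by their totals alone 376, 189, 108 and 46. DESeq2's size factors in edgeR, both filters on low values and both limma fits gave 309 to 464 higher, 197 to 264 lower, 94 to 117 highest and 48 to 71 lowest. With 1 library left out the numbers ranged over 167 to 568 higher, 75 to 505 lower, 51 to 150 highest and 28 to 124 lowest. Requiring no overlap of the scaled libraries left 110 highest and 71 lowest genes, and requiring both pairwise log2 changes to reach 1 left 31 and 5. Of 186 named genes called in the contrast, 0 reversed direction under these settings, but calls were lost for 0 with DESeq2, 4 with its size factors in edgeR, 36 with scaling by totals, 42 and 49 with limma at a pseudocount of 0.1 and 1, and 4 to 101 with 1 library left out. Of the called genes, 730 were also called by DESeq2, 710 with its size factors in edgeR, 545 with scaling by totals and 495 and 474 by limma with a pseudocount of 0.1 and 1. The cause of these shifts was not tested.

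No pairing of the cultures by replicate number was seen in correlations between libraries, and a shared origin cannot be told from these. Libraries of the same number had correlations of -0.158 to 0.216 in their deviations from group means (median -0.0437), and the labels tie no number to a shared day. With the replicate number as a block, 261 genes were higher, 157 lower, 84 highest and 39 lowest, and 66 of the 186 named genes lost their call.

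With 3 cultures a group and calls that moved with single libraries, the number of genes with small differences is uncertain. Without a culture with PB alone, the effect of PB by itself cannot be told apart from its effect beside BBP. Annotation terms of some genes disagree, and levels of similar family members depend on a counting rule that was not given.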
